A study of Drosophila melanogaster with 53 samples.

Results

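Males irradiated with 20000 R were compared with males irradiated with 10000 R, 20 days after exposure, which are 6 of the 53 RNA sequencing libraries of the series. R stands for roentgen, a unit of exposure to ionising radiation. All animals were adult Drosophila melanogaster males, irradiated 2 days after they left the pupal case, and messenger RNA was taken from the whole body. The labels name no strain and no allele, and both groups were irradiated, so neither is an untreated control. Each group holds 3 libraries, called a, b and c in the order of the table's columns, because the columns carry no replicate number. No label says that libraries came from separate cultures or pools of flies, so every p-value measures a spread between libraries, which may be technical. In the main fits that spread came from 18 libraries, not from these 6 alone. The values are read counts divided by a size factor per library, called normalized counts below.

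The comparison asks what separates the highest dose of the series from the next lower one long after exposure, in a study whose title speaks of a threshold. In the adult testis, stem cells at the tip divide into spermatogonia, which become spermatocytes, pass through meiosis and elongate as spermatids into sperm. Dividing germ cells are known to be sensitive to radiation, while cells that are past their divisions can go on maturing after it. Spermatids run on genes that were switched on in spermatocytes, and many of these genes are used almost nowhere else in the body.

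Genes of the sperm tail, sperm peptidases and testis copies of metabolic enzymes were among the genes lower at 20000 R than at 10000 R. Of 12475 genes tested, 97 were lower and 7 were higher in 20000 R than in 10000 R flies, together 0.834% of the genes tested, with 0.778% lower and 0.0561% higher (limma, Benjamini-Hochberg adjusted p under 0.05). The median change of the 97 was -1.55 on the log2 scale, with quartiles of -1.69 and -1.33, and 93 of them fell by at least 1 on that scale. The median over all genes tested was 0.0. In each of the 97, every 20000 R library lay below every 10000 R library, which was so for 8.58% of all genes tested. The fit drew its spread from the 18 libraries given 10000 R or 20000 R at all 3 days. The 97 genes had far higher levels at day 2, with a mean sum of 1131290 normalized counts at 20000 R, against 6767 at day 20. A spread shared over such unlike levels may misstate the SE and p-values of these genes, which was not tested. Fitted on the 6 libraries alone, limma called 0 genes, with 392 higher and 724 lower at an unadjusted p under 0.05 and a smallest adjusted p of 0.0959. At an unadjusted p under 0.05, the fit on 18 libraries had 513 lower (4.11%) and 207 higher (1.66%). On recovered reads, edgeR's quasi-likelihood test called 98 lower (0.786%) and 5 higher (0.0401%), and DESeq2 called 222 lower (1.78%) and 18 higher (0.144%). With 1 of the 6 libraries left out at a time, 52 to 92 genes were lower, fewest without 10000 R library c, then 55 without 20000 R b, 56 without 10000 R a and 63 without 20000 R a. Of the 97, 46 were called in all 6 of these fits. After quantile normalization 39 of the 97 kept the call and 58 did not. Below, rose, fell and passed refer to limma on the 18 libraries unless another tool is named.

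**Figure D1:**
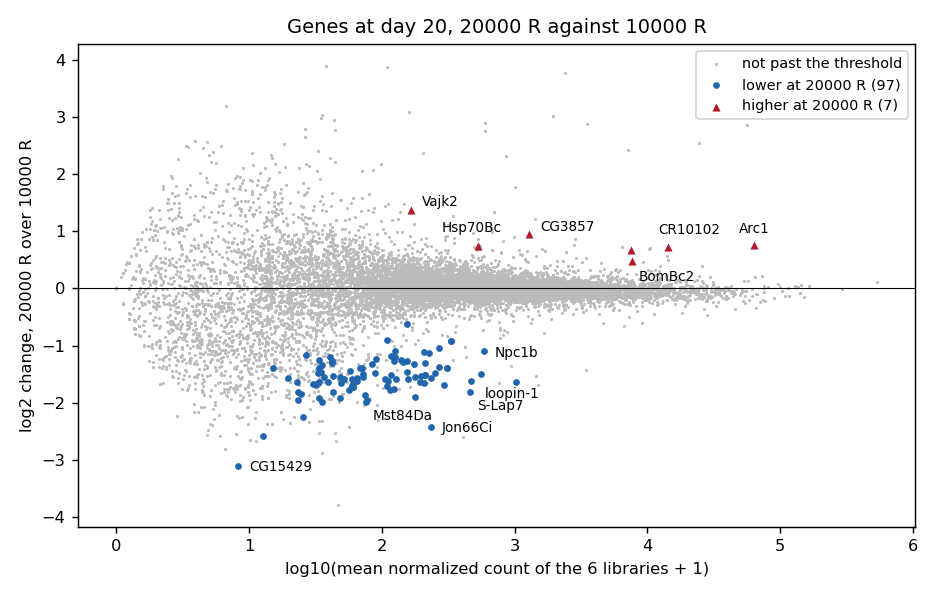
Log2 change of 20000 R over 10000 R at day 20 (vertical axis) against the mean level of the 6 libraries (horizontal axis, log10 scale), 1 point per gene tested. The 97 genes that were lower (blue circles) lie in a band between -3.1 and -0.62, mostly among genes with low remaining levels, and the 7 that were higher (red triangles) lie between 0.48 and 1.37.

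Of the 97 falls, 32 have a gene name, and 12 of these are Mst genes or sperm leucylaminopeptidases. The Mst genes encode small proteins of the sperm tail. Mst84Da had 21.9, 35.3 and 31.7 normalized counts in the 20000 R libraries, against 138.4, 102.7 and 117.1 in the 10000 R libraries. The highest 20000 R library lay far below the lowest 10000 R library, and the change was -1.99 (SE 0.22; limma adjusted p 0.000169). Mst98Ca had 74.8, 100.9 and 123.7 normalized counts at 20000 R, against 387.5, 243.8 and 314.5 at 10000 R, a change of -1.65 (SE 0.23; limma adjusted p 0.00114). The groups of Mst98Ca did not overlap either, with library a lowest at 20000 R and highest at 10000 R. Of the 7 Mst genes of the sperm tail, 6 fell, with changes from -1.99 to -1.48. The calls of Mst84Dc and Mst98Cb ended without 10000 R library a, at adjusted p of 0.0914 and 0.0513, and that of Mst84Dc also without 10000 R c or 20000 R a. Mst84Db stood at -1.49 with a limma adjusted p of 0.0649, and DESeq2 called it lower (adjusted p 0.0022). MstProx, which overlaps Mst84Da on the opposite strand, fell by 1.96. Whether counting used the strand is not given in the sources used here, so reads of these partners cannot be told apart.

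The sperm leucylaminopeptidases behaved alike. These peptidase relatives are major proteins of the sperm and collect in the mitochondrial derivatives along its tail. S-Lap7 had 173.1, 179.4 and 257.7 normalized counts at 20000 R, against 801.9, 575.1 and 752.7 at 10000 R. The groups were separated by more than the spread within either, with a change of -1.81 (SE 0.20; limma adjusted p 0.000175). S-Lap4 had 107.3, 108.8 and 133.1 normalized counts at 20000 R, against 365.2, 300.9 and 380.7 at 10000 R. With a change of -1.58 (SE 0.14), it had the smallest limma adjusted p of all genes tested, 9.88e-05. Of 7 members, 6 fell, and S-Lap5 stood at -1.17 with a limma adjusted p of 0.253 and a DESeq2 adjusted p of 0.0146. Summed over the 7 members, the level was 954 ± 208 normalized counts at 20000 R and 2786 ± 376 at 10000 R (SD, n = 3 each), a ratio of 0.342. Members of this family resemble each other in sequence, so reads may be shared among them. Loopin-1, a related sperm protein, had 225.2, 192.7 and 260.7 normalized counts at 20000 R, against 828.1, 591.0 and 687.8 at 10000 R. It fell by 1.63 (SE 0.16; limma adjusted p 0.000113), and no 20000 R library came near the lowest 10000 R library.

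Testis copies of housekeeping genes fell as well, among them enzymes of energy metabolism. Male germ cells use their own copies of many metabolic enzymes and chaperones. Hsp60C, a testis paralog of the mitochondrial chaperonin, had 120.2, 101.5 and 101.9 normalized counts at 20000 R, against 236.8, 319.0 and 387.4 at 10000 R. Its groups did not overlap, and it fell by 1.51 (SE 0.19; limma adjusted p 0.000583). Hsp60B, the paralog needed for spermatids to separate, fell by 1.27 (SE 0.26; limma adjusted p 0.0248), a call that only the omission of 20000 R library b left in place, with adjusted p up to 0.154 among the others. Hex-t2, a testis hexokinase, averaged 15.1 ± 1.4 normalized counts at 20000 R and 50.03 ± 13.7 at 10000 R (SD, n = 3 each) and fell by 1.63. Gpo3, a paralog of mitochondrial glycerol-3-phosphate oxidase, fell by 1.39, Scsalpha2, a paralog of a succinyl-CoA synthetase subunit, by 1.53, and Pglym87, a paralog of phosphoglycerate mutase, by 1.45. Cyt-c-d, the cytochrome c that spermatids need for their caspases, fell by 1.25. The calls of Pglym87 and Cyt-c-d each ended in 5 of the 6 fits that left out a library, all but the one without 10000 R b for Pglym87 and 20000 R c for Cyt-c-d, with adjusted p up to 0.162 and 0.304. These metabolic genes were singled out after their values were seen.

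Other named genes among the falls moved by similar amounts. Ppi1, an inhibitor of a protein phosphatase, had 108.1, 84.5 and 135.1 normalized counts at 20000 R, against 359.8, 272.0 and 302.7 at 10000 R. It fell by 1.52 (SE 0.17; limma adjusted p 0.000194), with the groups far apart. CatB, a catalase gene, had 41.6, 24.9 and 45.02 normalized counts at 20000 R, against 96.9, 95.5 and 119.3 at 10000 R, and fell by 1.49 (SE 0.22; limma adjusted p 0.00223). TTLL4B, a relative of tubulin tyrosine ligases, fell by 1.26 and kept 1.02% of its 1000 R level at 20000 R and 2.48% at 10000 R. Mics1 had one of the larger falls, 1.98 (SE 0.25; limma adjusted p 0.000583), with 9.83, 16.4 and 13.4 normalized counts at 20000 R, against 42.3, 54.98 and 67.8 at 10000 R. All of these kept their calls when any 1 of the 6 libraries was left out. The testis tubulin betaTub85D, which did not pass, had 75.6, 84.5 and 103.9 normalized counts at 20000 R, against 105.3, 190.2 and 274.0 at 10000 R (change -1.01, SE 0.26; limma adjusted p 0.103, DESeq2 0.00111). Its groups just failed to overlap, since 10000 R library a lay next to 20000 R library c.

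Over the list of 71 genes of spermatocytes and spermatids, 69 were tested, 14 fell and 0 rose by limma, with a median change of -1.10. At an unadjusted p under 0.05, 31 members were lower and 1 was higher. EdgeR called 14 lower and DESeq2 23 lower, and neither called a member higher. Part of this list was assembled with results of these data known, so its direction is not independent evidence. Families with low counts had no member past the threshold by limma or edgeR, while DESeq2 called a few members lower. The testis proteasome subunits had 0 of 7 past the threshold by limma and 2 by DESeq2, Prosbeta5R1 and Prosalpha6T. Of the 7, 5 were below 0 and 2 above, with a median of -1.53, and their mean levels in the 6 libraries ran from 2.79 to 16.4 normalized counts. Prosbeta5R1, for instance, had 3.78, 2.43 and 6.93 normalized counts at 20000 R, against 15.4, 17.4 and 22.8 at 10000 R, without overlap (change -1.93, SE 0.47; limma adjusted p 0.0756, DESeq2 0.000615). The cup and comet genes, transcribed after meiosis, had 0 of 12 past the threshold by limma and 1, schuy, by DESeq2, and 11 of 12 below 0, with a median of -0.96. The 5 sperm chromatin proteins, which replace histones in the sperm nucleus, were all below 0 with a median of -1.10, and 0 passed by limma. ProtA, a protamine, had 3.78, 5.47 and 7.42 normalized counts at 20000 R, against 10.8, 23.9 and 26.5 at 10000 R (limma adjusted p 0.192, DESeq2 0.00746).

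Regulators that act early in spermatocytes gave no call, and most had few counts. The meiotic arrest genes, which switch on the spermatocyte programme, had 0 of 8 past the threshold by limma, edgeR or DESeq2, with 4 below 0, 4 above 0 and a median of 0.08. At an unadjusted p under 0.05, 1 was higher and 0 were lower. Of the 8, 6 had a mean under 5 normalized counts in the 6 libraries, too few to show a change of the size seen in the falls, and a difference from the other families was not tested. Topi, one of them, had 37.8, 69.9 and 46.5 normalized counts at 20000 R, against 45.4, 14.5 and 22.1 at 10000 R (change 0.99, SE 0.44; limma adjusted p 0.805). Bol, a translational regulator of meiosis, averaged 1429 ± 128 normalized counts at 20000 R and 1224 ± 135 at 10000 R (SD, n = 3 each), with overlapping groups. It kept 36.9% of its 1000 R level at 20000 R and 31.6% at 10000 R. Pif1A, a further member of the spermatocyte and spermatid list, stood at 35792, 42670 and 43393 normalized counts at 20000 R, against 33848, 44525 and 46341 at 10000 R. It kept 105% of its 1000 R level at 20000 R and 107% at 10000 R, and carried most of the list's summed counts. Without it, the other 70 members summed to 3917, 3671 and 4266 normalized counts at 20000 R, against 7716, 6384 and 7992 at 10000 R. The 17 tested genes of germ line stem cells and spermatogonia had 0 past the threshold by limma, edgeR or DESeq2, 1 higher at an unadjusted p under 0.05, and a median of 0.02. Bam, which drives spermatogonia into differentiation, had 8.31, 4.26 and 1.48 normalized counts at 20000 R, against 28.4, 0.0 and 2.95 at 10000 R, too few to compare.

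Most falls were changes within a small remainder. Against the mean of the 1000 R libraries of the same day, the 97 genes kept a median of 0.788% of their level at 20000 R, with quartiles of 0.671% and 0.955%. At 10000 R they kept a median of 2.37%, with quartiles of 2.08% and 2.69%, and 90 of the 97 kept under 5%. The exceptions included CG15429, at 0.814% of the 1000 R level at 20000 R and 14.8% at 10000 R, Jon66Ci, at 12.001% and 70.7%, and Npc1b, at 38.7% and 82.7%. Summed over the 97 genes, mean normalized counts at day 20 were 804484 at 10 R, 768116 at 1000 R and 808316 at 5000 R. The sum was 18858 ± 2845 at 10000 R and 6767 ± 739 at 20000 R (SD, n = 3 each). The range at 5000 R, 583691 to 1173040, was the widest of these doses and did not reach down to the 10000 R libraries. In a whole fly, fewer cells of a type and less RNA per cell cannot be told apart.

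**Figure D2:**
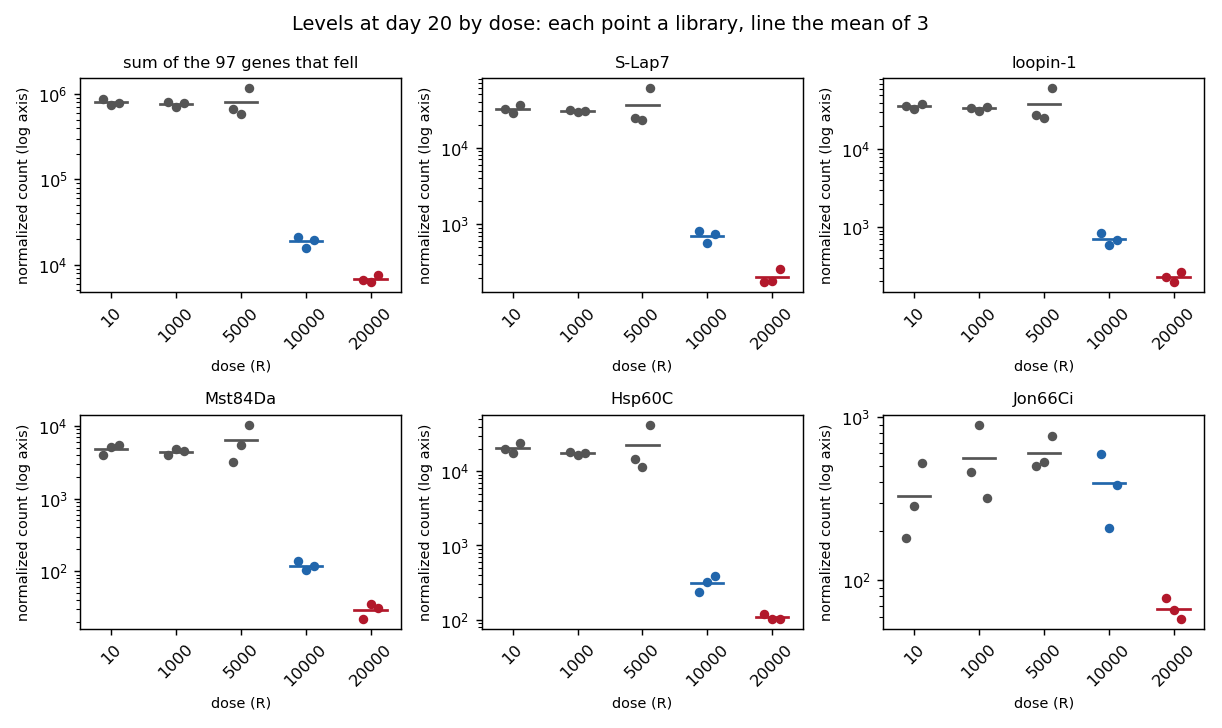
Normalized counts at day 20 (vertical axes, log scale) by dose in R (horizontal axes) for the sum of the 97 genes that fell, 4 testis genes and the gut protease gene Jon66Ci. Points are libraries and lines are means of 3; the testis genes step down at 10000 R and again at 20000 R, while Jon66Ci at 10000 R lies among the lower doses and at 20000 R is between 57.9 and 77.8.

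Nearly all falls belonged to genes that the flies had already lost by day 10. A rule chosen after values were seen took genes whose level dropped at least 8-fold between day 2 and day 10 at both doses, which uses none of the 6 libraries. It found 1271 genes, 10.2% of those tested, and 95 of the 97 falls were among them. Of these 1271 genes, 84.1% were lower at 20000 R at day 20, their median change was -0.81, and 7.47% were called lower. The other 11204 genes had 46.1% below 0 and a median of 0.01, and 0.0179% were called lower. The share called depended on the level: 0 of 382 lost genes with a mean under 5 normalized counts were called lower, against 44 of 159 with a mean of 50 to 200 and 19 of 45 with 200 or more. The median change differed less between these bins, at -0.57, -0.78 and -0.54, and was -0.88 and -1.0 in the bins of 5 to 20 and 20 to 50.

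Some germ line or testis paralogs in lists for general cell functions had negative values without passing by limma or edgeR. In the oxidative stress list, TrxT, the thioredoxin of the testis, had 22.7, 13.98 and 26.7 normalized counts at 20000 R, against 109.9, 44.8 and 53.8 at 10000 R (change -1.61, SE 0.39; limma adjusted p 0.0746, DESeq2 0.000828). In the autophagy list, Atg8b, the Atg8 copy of the male germ line, had 6.80, 5.47 and 7.92 normalized counts at 20000 R, against 16.9, 13.7 and 25.8 at 10000 R (change -1.32; limma adjusted p 0.184, DESeq2 0.0131). DESeq2 thus called both lower, and neither gene had overlapping groups. In the oxidative phosphorylation list, the paralogs COX5BL and ATPsynGL stood at -0.85 and -1.78, and in the ribosomal list RpS19b stood at -1.94, none of them past the threshold by limma, edgeR or DESeq2. These 5 genes kept 0.187% to 1.90% of their 1000 R level at 20000 R, and 1.35% to 3.47% at 10000 R. Not every such paralog had a negative value. ND-51L1, of the spermatocyte and spermatid list, stood at 0.55 (SE 0.81) and kept 1.61% at 20000 R and 1.17% at 10000 R. The median change was -0.08 for the oxidative stress list, 0.02 for autophagy, -0.18 for oxidative phosphorylation and -0.04 for cytoplasmic ribosomal proteins.

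Most falls have little annotation. Of the 97, 62 carry a CG number only and 3 have no symbol, and 83 are in none of the gene lists. Among the 12 largest falls of better counted genes (a mean of 50 or more in the 6 libraries) were CG3517, CG14718, CG17377, CG32445, CG10252, CG32119, CG31988 and FBgn0040994, with changes from -1.90 to -1.72. CG3517 had 68.0, 74.2 and 71.7 normalized counts at 20000 R, against 166.1, 343.6 and 340.2 at 10000 R. CG14718 had 27.2, 31.6 and 35.1 normalized counts at 20000 R, against 99.95, 110.7 and 140.7 at 10000 R. In both genes the 20000 R libraries lay close together and below every 10000 R library. Without 10000 R library c, CG3517 had an adjusted p of 0.0624. CG17377 lost its call without any 1 of the 6 libraries, at 0.0655 to 0.207, and CG31988 and FBgn0040994 without 10000 R a or c or 20000 R a or b, at up to 0.0806 and 0.0772. CG15429, with the most negative change of all at -3.10 (SE 0.64), rests on 2.27, 0.0 and 0.0 normalized counts at 20000 R, against 4.61, 18.1 and 18.4 at 10000 R. It lost its call without b or c of either dose, with adjusted p up to 0.163. In addition, 4 pairs of neighbours among the falls, CG9130 with CG9133, CG12902 with CG43397, CG18170 with CG33791 and CG31542 with CG34277, overlap on the same strand and have equal values in all 53 libraries within a log2 difference of 0.1, so each pair counts the same reads. By chromosome, 7.22% of the falls lie on X, which holds 15.5% of the genes tested and 15.5% of the 1271 lost genes. Arm 3R holds 30.9% of the falls and 23.2% of the genes tested.

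Both falls outside the lost genes are gut genes. Jon66Ci, a Jonah serine protease of the midgut, had 77.8, 65.7 and 57.9 normalized counts at 20000 R, against 592.8, 208.3 and 385.2 at 10000 R. The 20000 R libraries were tight and low and the 10000 R libraries spread widely above them, with a change of -2.43 (SE 0.52; limma adjusted p 0.0361). Its mean at lower doses of day 20 was 329.6 at 10 R, 559.4 at 1000 R and 601.4 at 5000 R. The same dose step of Jon66Ci was 1.51 at day 2 and -0.55 at day 10, without passing (limma adjusted p 0.947 and 0.685). Npc1b, which takes up dietary sterol in the midgut, had 299.3, 494.3 and 319.1 normalized counts at 20000 R, against 1025, 656.1 and 695.2 at 10000 R. It fell by 1.10 (SE 0.24; limma adjusted p 0.0422), without overlap. The call of Jon66Ci ended when any library but 10000 R b was left out, with limma adjusted p of 0.0928 to 0.2. That of Npc1b ended when any library but 20000 R b was left out, at 0.0555 to 0.239.

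Other digestive genes gave lower values at 20000 R without passing by limma. Of the 54 digestive enzymes, Jon66Ci fell and 0 rose by limma and edgeR, and DESeq2 called 4 lower. In all, 11 were lower and 0 higher at an unadjusted p under 0.05, with a list median of -0.12 against 0.0 over all genes. Jon65Ai, a further Jonah protease, had 423.3, 480.9 and 568.9 normalized counts at 20000 R, against 2226, 1127 and 778.4 at 10000 R (change -1.36, SE 0.31; limma adjusted p 0.0533, DESeq2 0.000397). Mal-A4, a maltase, averaged 5195 ± 885 normalized counts at 20000 R and 8142 ± 1015 at 10000 R (SD, n = 3 each; limma adjusted p 0.0571, DESeq2 0.00618). Mal-A1, its abundant relative, stood at -0.01 (SE 0.13). Summed over 16 Jonah proteases, the counts were 166238, 153769 and 177535 at 20000 R, against 256211, 170696 and 152553 at 10000 R, and the groups overlapped.

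The rises were few and of mixed kinds, and CG3857 was the only one of the 7 called in all 6 fits that left out a library. All 7 had every 20000 R library above every 10000 R library, as did 5.64% of all genes tested. Arc1 encodes a capsid-forming protein that carries RNA. It had 86562, 70172 and 81598 normalized counts at 20000 R, against 44486, 50232 and 45883 at 10000 R. All 20000 R libraries lay above all 10000 R libraries, with a change of 0.76 (SE 0.14; limma adjusted p 0.012). Over dose at day 20, its mean was 30300.4 at 10 R, 33860.1 at 1000 R, 30335 at 5000 R, 46867 at 10000 R and 79444 at 20000 R. CR10102, annotated as a pseudogene beside Arc1, rose by 0.72 (SE 0.16; limma adjusted p 0.0405), with 18702, 15971 and 18266 normalized counts at 20000 R, against 9753, 11580 and 10710 at 10000 R. Whether reads of related sequence are split between them was not tested, so their rises may not be separate observations. By edgeR, CR10102 did not pass (adjusted p 0.0969). Arc1 lost its call without a or c of either dose, with limma adjusted p up to 0.076, and CR10102 without any 1 library, at 0.0697 to 0.197.

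CG3857 had 1534, 1693 and 1835 normalized counts at 20000 R, against 891.1, 1016 and 731.3 at 10000 R. The groups were well apart, with a change of 0.95 (SE 0.14; limma adjusted p 0.00183). At lower doses its mean was 676.3 at 10 R, 705.2 at 1000 R and 756.7 at 5000 R. Vajk2 had the largest rise, 1.37 (SE 0.30; limma adjusted p 0.0388, edgeR 0.0607), with 321.2, 221.3 and 176.6 normalized counts at 20000 R, against 72.3, 127.3 and 76.6 at 10000 R. Its mean was 42.4 at 10 R, 48.2 at 1000 R and 124.9 at 5000 R, where library c had 288.9. FBgn0029738, which had no symbol in the annotation used, rose by 0.67 (SE 0.15; limma adjusted p 0.0422). Its mean was 8003 at 10 R, 8166 at 1000 R, 6257 at 5000 R, 5843 at 10000 R and 9286 at 20000 R, so the 10000 R mean was the lowest of these doses. Vajk2 lost its call without 10000 R a or c or 20000 R a or b, at limma adjusted p of 0.131 to 0.206, and FBgn0029738 without any 1 library, at 0.0908 to 0.196.

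Hsp70Bc, a copy of the stress-induced chaperone Hsp70, had 642.4, 622.0 and 702.0 normalized counts at 20000 R, against 368.3, 397.9 and 412.4 at 10000 R. It rose by 0.74 (SE 0.16; limma adjusted p 0.0397), and the groups did not overlap. The call ended without any 1 of the 6 libraries, at adjusted p of 0.111 to 0.176. The other 5 copies of Hsp70 did not pass by limma or edgeR, with changes of 0.67 to 0.72, and DESeq2 called 3 of them higher. Since these copies are nearly identical and share reads, their sum is the safer measure: 4301, 4110 and 4384 at 20000 R, against 2456, 2737 and 2730 at 10000 R, a ratio of 1.61. At lower doses the sum averaged 3037 at 10 R, 2955 at 1000 R and 3270 at 5000 R, so 10000 R lay slightly below and 20000 R above them. Of 27 heat shock genes tested, Hsp70Bc rose and the testis genes Hsp60B and Hsp60C fell, with a list median of 0.07. At an unadjusted p under 0.05, 8 were higher and 3 lower, and DESeq2 called 4 higher and 3 lower. Hsp68 at 0.58, Hsp26 at 0.67 and Hsp23 at 0.41 had every 20000 R library above every 10000 R library without passing (limma adjusted p 0.555, 1.0 and 0.856). Hsp22 at 0.19 did not overlap either and did not pass (limma adjusted p 0.98), while Hsp83 at 0.08 and Hsp27 at 0.03 had overlapping groups.

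BomBc2 is a Bomanin, a short secreted peptide induced by the Toll pathway. It had 8898, 8277 and 9404 normalized counts at 20000 R, against 6725, 6651 and 5682 at 10000 R, a rise of 0.48 (SE 0.10; limma adjusted p 0.0212, edgeR 0.0566) without overlap. At lower doses its mean was 6545 at 10 R, 6659 at 1000 R and 8867 at 5000 R, so the 5000 R mean lay beside the 8860 at 20000 R. The call ended without 10000 R c, 20000 R a or 20000 R c, at adjusted p of 0.088 to 0.141. It was the only one of 8 Bomanins tested to pass. BomBc3 at 0.69 and BomS3 at 0.75 had non-overlapping groups and limma adjusted p of 0.408 and 0.601, and the median of the 8 was 0.72. Classical antimicrobial peptides had 0 of 17 past the threshold by limma, edgeR or DESeq2, with 1 higher and 1 lower at an unadjusted p under 0.05 and a median of -0.87. The higher member, BaraA1, had 13940, 10176 and 13989 normalized counts at 20000 R, against 8131, 7195 and 7929 at 10000 R (change 0.70, SE 0.30; limma adjusted p 0.772). Summed over the 21 genes of the list, counts were 36367, 17311 and 20517 at 20000 R, against 20333, 17428 and 24714 at 10000 R, with overlapping groups. Def, the defensin, had 62.0, 119.2 and 116.7 normalized counts at 20000 R, against 263.7, 225.7 and 244.5 at 10000 R (change -1.35, SE 0.38; limma adjusted p 0.192). Its groups did not overlap. Diptericin DptA had 2483, 305.8 and 272.1 normalized counts at 20000 R, against 1924, 1476 and 2455 at 10000 R, so library a of 20000 R was high and b and c were low. Drosocin (Dro) followed the same library pattern, with 2524, 128.3 and 105.9 normalized counts at 20000 R, against 887.3, 339.3 and 700.4 at 10000 R.

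**Figure D3:**
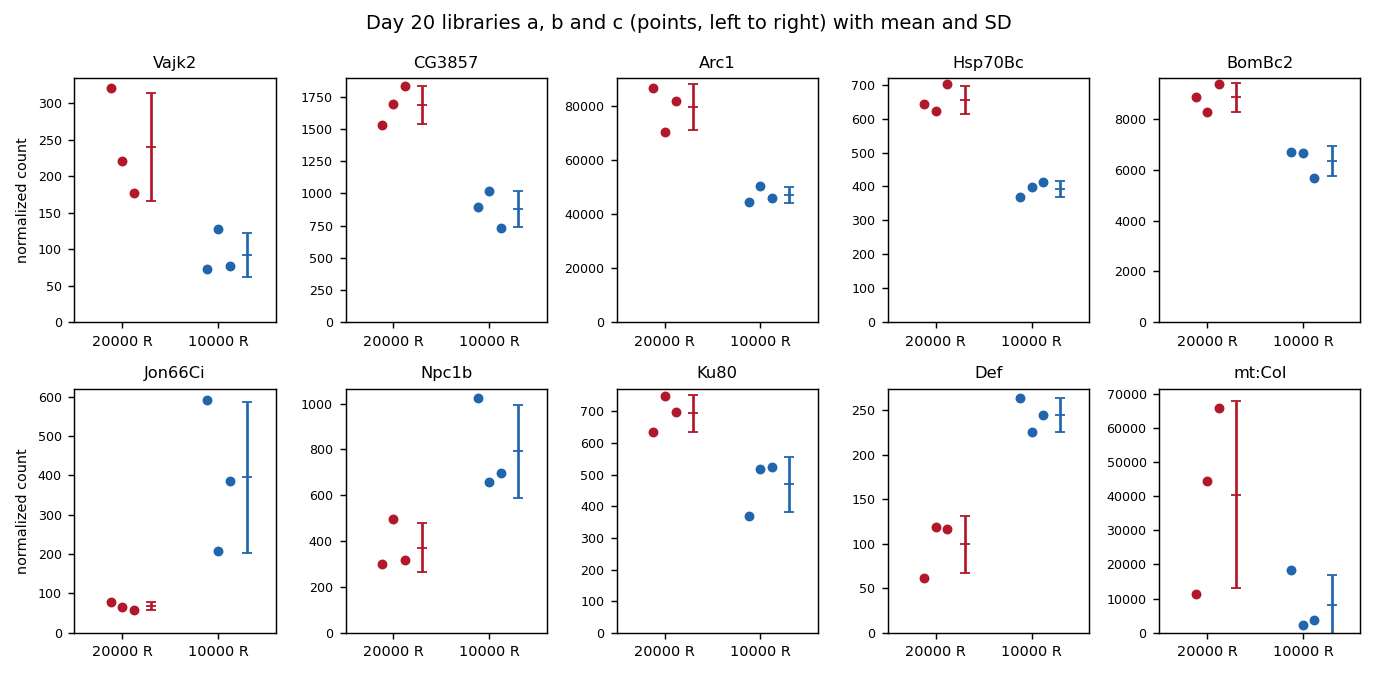
Normalized counts of 10 genes (vertical axes, from 0) in the 20000 R libraries (red, left) and the 10000 R libraries (blue, right) at day 20, with points for libraries a, b and c and bars for mean and SD. The 5 genes of the upper row rose. Below them Jon66Ci and Npc1b fell, and Ku80 and Def did not overlap but did not pass by limma. The mt:CoI libraries spread widely and overlapped between groups, with the 10000 R bar ending at the axis.

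Genes of the radiation response gave no call at day 20 by limma or edgeR, and DESeq2 called Ku80 higher. Of 11 p53 and radiation-induced targets, 0 passed by limma and edgeR and 1 by DESeq2, with 3 higher and 0 lower at an unadjusted p under 0.05 and a list median of 0.16. Ku80 encodes a subunit of the Ku complex, which binds broken DNA ends. It had 634.1, 749.1 and 697.0 normalized counts at 20000 R, against 369.1, 517.2 and 522.9 at 10000 R (change 0.58, SE 0.13; limma adjusted p 0.0571, edgeR 0.0842, DESeq2 0.0224). Irbp, the partner subunit, had 656.8, 647.5 and 587.7 normalized counts at 20000 R, against 408.3, 443.4 and 448.5 at 10000 R (change 0.54, SE 0.15; limma adjusted p 0.168). Neither gene had overlapping groups. The regulators p53 at -0.04, Xrp1 at 0.09 and Corp at 0.09, the death genes hid at 0.16 and egr at 0.01, and the repair gene mre11 at 0.35 did not pass. The 36 DNA repair and checkpoint genes had a median of 0.15, the 16 caspases and death regulators 0.0, and the 53 cell cycle genes 0.04, with 0 calls by limma, edgeR or DESeq2 in each. In those 3 lists 0 members were higher and 1 was lower at an unadjusted p under 0.05.

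Most lists for the other tissues of the male had no member past the threshold. In all, 41 of 45 lists had no member past the threshold by limma or edgeR, with 1087 members tested in them (a gene in several lists counted in each) and 29 higher and 29 lower at an unadjusted p under 0.05. DESeq2 called 3 members higher and 4 lower in 6 of these 41 lists. They were the odorant-binding protein genes Obp50b and Obp50c, which had equal values in the 6 libraries, the cuticle protein gene Acp1, the mitochondrial mt:tRNA:Leu-TAG, TrxT, Atg8b and Ku80. Obp50b and Obp50c were each at 0 in all 20000 R libraries and at 0.769 normalized counts in 10000 R library a, with 0 in b and c, and their limma adjusted p was 1.0. Acp1 had 1119, 32.8 and 21.3 normalized counts at 20000 R, against 19.2, 11.6 and 22.8 at 10000 R, with 20000 R library a far above the other 5 libraries. Accessory gland proteins had a median of 0.02 over 34 genes, muscle genes -0.04 over 25, neuronal genes -0.05 over 30, blood cell genes -0.02 over 26 and cytochrome P450s 0.07 over 81. Nuclear-encoded oxidative phosphorylation genes had a median of -0.18 over 83 genes, with 5 lower and 0 higher at an unadjusted p under 0.05. Among genes that did not pass, several had groups that did not overlap. GstD2, a glutathione S-transferase, had 378.7, 408.0 and 415.0 normalized counts at 20000 R, against 155.3, 217.0 and 275.4 at 10000 R (change 0.93, SE 0.30; limma adjusted p 0.34). Lsp1gamma, a larval storage protein, had 31.7, 32.8 and 65.3 normalized counts at 20000 R, against 13.1, 5.79 and 7.36 at 10000 R (change 2.17; limma adjusted p 0.49). Lsp2, of the same list and far more abundant, went the other way, with 24146, 26228 and 20984 normalized counts at 20000 R, against 36290, 33722.5 and 28323 at 10000 R (change -0.46; limma adjusted p 0.785). Sox21a, a transcription factor of intestinal progenitors, had 26.5, 11.6 and 16.3 normalized counts at 20000 R, against 53.8, 31.1 and 51.6 at 10000 R (change -1.32; limma adjusted p 0.807). Among abundant genes, the rhodopsin ninaE stood at -0.34 and the proteasome subunit Prosalpha1 at -0.30, with limma adjusted p of 0.521 and 0.501.

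Transcripts of the mitochondrial genome varied widely between libraries and had higher means at 20000 R on all 3 days. Their 37 genes summed to 50155, 171931 and 264109 normalized counts at 20000 R, against 82396, 7242 and 13090 at 10000 R, so 10000 R library a exceeded 20000 R library a. Their 16 tested members had a median of 2.80 with 0 past the threshold by limma and edgeR and 1 by DESeq2. FBgn0085364 shared the day 20 order of libraries, with 185.9, 1329 and 1730 normalized counts at 20000 R, against 190.7, 57.1 and 93.5 at 10000 R. At day 20 it was called higher by edgeR (adjusted p 0.0412) and DESeq2 (3.41e-05) but not by limma (0.0701). Limma called it higher at day 10, by 3.66 (adjusted p 0.0368). The part of these library differences in the other results was not tested.

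**Figure D4:**
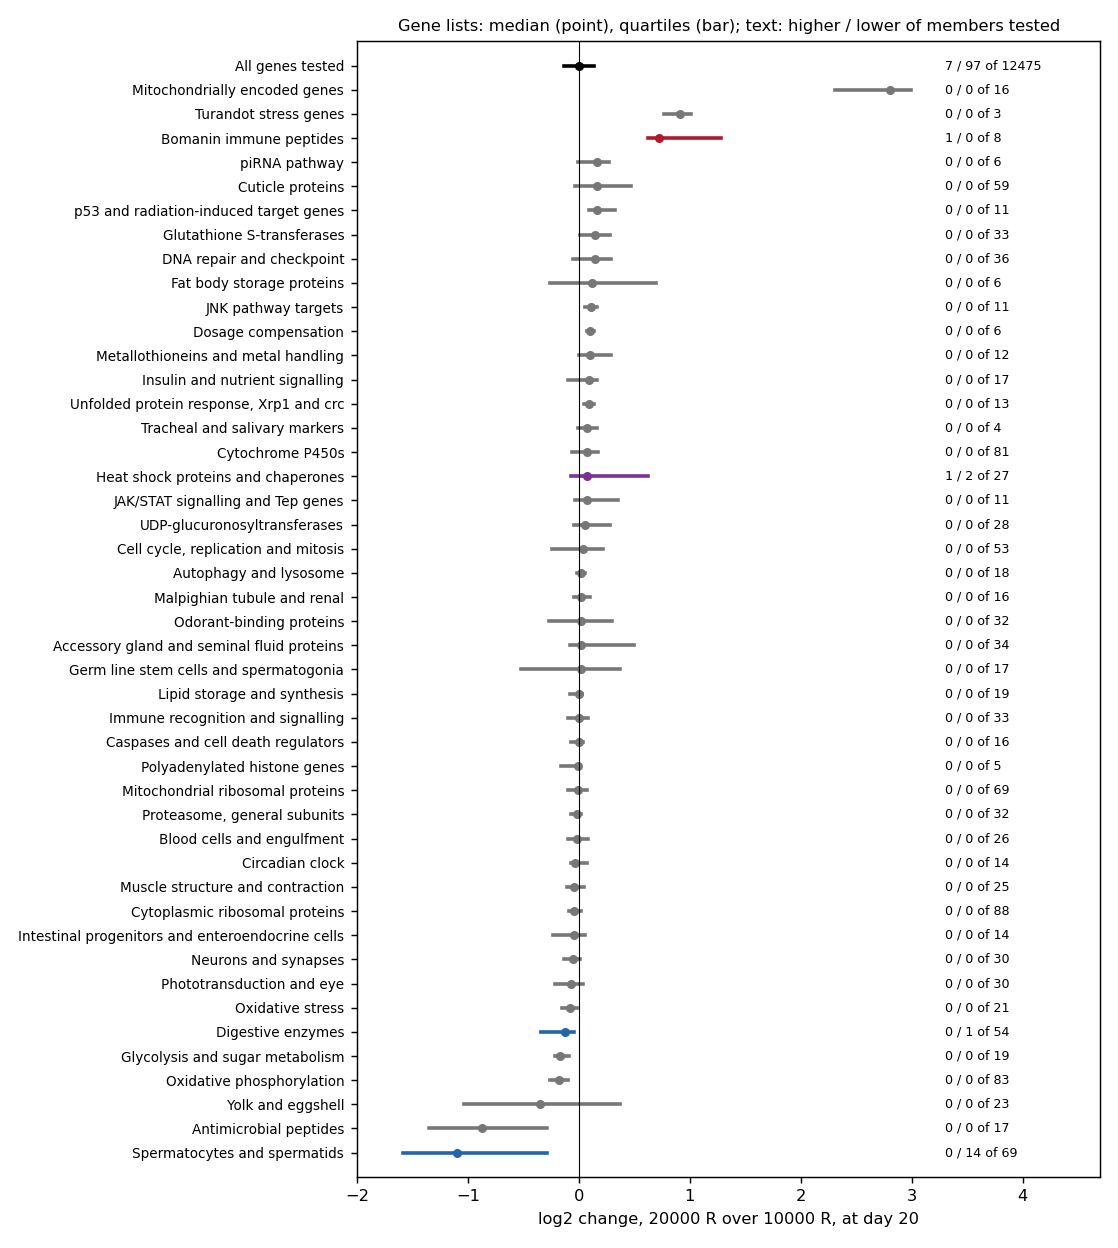
Log2 change of 20000 R over 10000 R at day 20 (horizontal axis) for 45 gene lists and all genes tested, with the median as a point and the quartiles as a bar, and the number higher, lower and tested as text. Blue marks lists with only falls, red only rises, purple both and grey none; the spermatocyte and spermatid list has a median of -1.10, and most others lie near 0.

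Marker genes of the male body were present in both groups. Summed markers of accessory gland, ejaculatory bulb, fat body, gut, Malpighian tubule, muscle, eye, neurons and blood cells had counts in all 6 libraries. Fbp1 of the fat body stayed under 10 normalized counts. TpnC4 of the muscle had 6.80, 13.98 and 7.92 normalized counts at 20000 R, against 16.9, 0.0 and 0.0 at 10000 R. Of 4 listed markers each for muscle and eye, 3 had values. The 7 markers of spermatocytes and spermatids summed to 208 to 302 normalized counts at 20000 R, against 565 to 771 at 10000 R, and aly and can among them stayed under 10. Female markers summed to 1140 to 1463 at 20000 R, against 1169 to 2762 at 10000 R, with the eggshell genes Cp36 and Vm26Aa under 10. The yolk gene Yp1 averaged 580.5 normalized counts at 20000 R and 954.2 at 10000 R, and Yp3 averaged 506.7 at 20000 R and 765 at 10000 R. Both genes had overlapping groups. In 10000 R library a, Yp1 was at 447.5, against 520.5 to 638.7 at 20000 R, and Yp3 at 529.0, against 444.5 to 569.1. Recovered depth was 30029426 to 46152062 reads in the 6 libraries, among 15.4 to 46.2 M in the series, and 12673 to 13647 genes had a value above 0.

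The same dose step was examined at day 10 and day 2, in libraries whose means the day 20 comparison does not use. Their spread entered the day 20 fit, so the choice of the 97 genes is not independent of them. The 10000 R libraries of day 10 also ranged widely in yolk and eggshell genes, as given with the processing. At day 10, 22 genes were lower and 5 higher at 20000 R by limma, 0.216% of those tested, with 0.176% lower and 0.0401% higher. All 97 genes that fell at day 20 had a value below 0 at day 10, where 42.8% of all genes did, and 21 of them were called lower there. Their median step was -0.88 at day 10 and -0.09 at day 2, when 71 of 97 were below 0. S-Lap4 gave -0.23 at day 2, -1.17 at day 10 and -1.58 at day 20. Hsp60C gave -0.25, -1.65 and -1.51 at these days. Summed over the 97 genes, the mean level was 1131290 at 20000 R and 1206030 at 10000 R at day 2, and 11287 at 20000 R and 20520.3 at 10000 R at day 10. Between day 10 and day 20, the 20000 R sum stood at 11287 and 6767, and the 10000 R sum at 20520.3 and 18858.

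**Figure D5:**
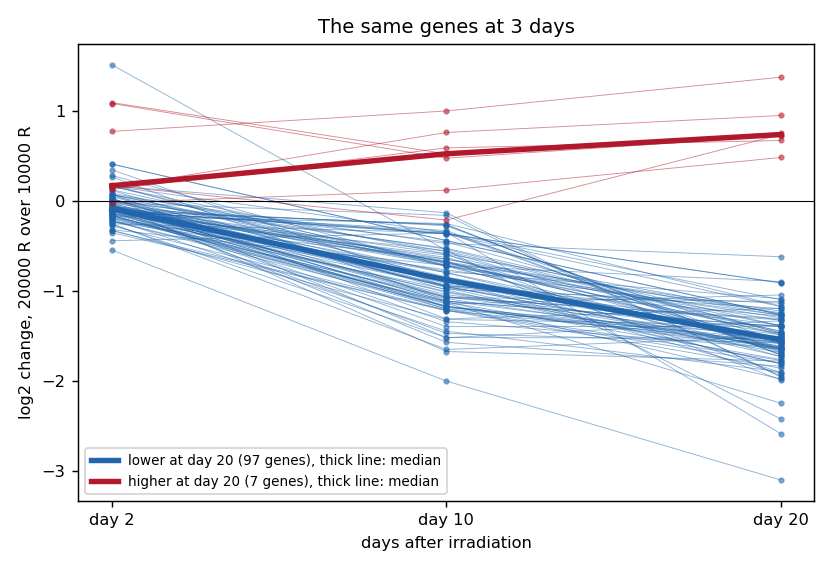
Log2 change of 20000 R over 10000 R (vertical axis) at days 2, 10 and 20 (horizontal axis) for the 97 genes that fell and the 7 that rose at day 20, 1 thin line per gene with thick lines for the medians. The medians of the 97 are -0.09, -0.88 and -1.55; the day 20 values were used to choose the genes.

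Tested directly, the step at day 20 differed from the step at day 2 for 9 genes by limma, 0.0721% of those tested, all with a more negative step at day 20. They are Mst84Da, S-Lap4, loopin-1, Ppi1, CG3213, CG14718, CG10252, CG12699 and FBgn0038762, with differences from -2.15 to -1.35. After quantile normalization 0 genes differed, and DESeq2 gave 97 with a more negative and 7 with a more positive step. Between day 20 and day 10, the step differed for 0 genes (0.0%) by limma, with 95 more positive and 256 more negative at an unadjusted p under 0.05, for 0 by edgeR, and for 18 with a more negative and 1 with a more positive step by DESeq2. Among the rises, Arc1 was higher at 20000 R at day 2 too, by 1.09 (limma adjusted p 0.00839), and with CR10102 it made up both genes called at day 2, 0.016% of those tested. At day 10 Arc1 stood at 0.52 without passing. CG3857 was higher at day 10, by 0.76 (limma adjusted p 0.0308). Ku80 was also higher at day 10, by 0.97 (limma adjusted p 0.0046). Hsp70Bc gave 0.17 at day 2 and -0.21 at day 10, and BomBc2 gave -0.02 and 0.12.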

How the data were processed

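Messenger RNA of whole flies was sequenced in 53 libraries (18 groups of dose and day), prepared with the Illumina TruSeq kit per the labels' protocols. The authors deposited a normalized signal per gene, that is, read counts divided by a size factor; the submitters' processing notes name TopHat2 2.0, DESeq and the genome build dm3. How reads were counted, and on which gene models, is not given in the sources used here. In each library all values were whole multiples of one step, within a tolerance of 0.1, so whole reads were recovered. Symbols and chromosome arms came from an annotation of another build for 14347 of 15222 identifiers, and no coordinates or sequences are given.

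Values were analysed as log2(normalized count + 1), which understates changes of low genes. Genes with an average of 10 or more over all 53 libraries were tested (12475). The limma fit (3.58.1, R 4.3.3, eBayes with trend) gave each of the 6 groups of 10000 R and 20000 R at days 2, 10 and 20 its own mean, with 12 residual and 4.12 prior degrees of freedom, and each contrast was adjusted over all genes tested (Benjamini-Hochberg) and read at 0.05. The recovered reads were also fitted with edgeR 4.0.16 and DESeq2 1.42.0. The alternatives comprised other sets of libraries, leaving out each library of the comparison, other scalings, pseudocounts and filters, and limma settings. One was added after seeing the data, the omission of 10000 R day 10 library c and 20000 R day 10 library a. Both stay in the main fit. Limma's array weights, used in another setting, were 0.368 and 0.118 for them. At day 10, 24 yolk and eggshell genes summed to 1514 to 222859 normalized counts over the 10000 R libraries, against 1349 to 2665 at 20000 R. What this range did to the pooled spread was not tested. The limma script was tested on simulated data.

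The comparison, the 45 gene lists and the rules were chosen with earlier results of these data known. Genes were named by rule as the 12 largest falls and rises past the threshold with a mean of 50 or more in the 6 libraries, rises being filled by the smallest unadjusted p, then up to 4 members per list and fixed radiation and germ line genes. Genes named outside that rule, chosen after their values were seen, are Mst84Db, Mst84Dc, Mst84Dd, Mst87F, Mst98Cb, ProtA, Prosalpha6T, schuy, S-Lap1, S-Lap2, S-Lap3, S-Lap5, Hex-t2, Gpo3, Scsalpha2, Pglym87, Cyt-c-d, betaTub85D, Ppi1, CatB, TTLL4B, Mics1, topi, bol, Pif1A, ND-51L1, CG15429, the equal pairs, Npc1b, Jon65Ai, Mal-A1, Mal-A4, Hsp22, Hsp23, Hsp26, Hsp27, Hsp68, Hsp83, the Hsp70 copies Aa and Ab, BomBc3, BomS3, DptA, Dro, Yp1, Yp3, Acp1, Obp50b, Obp50c, mt:tRNA:Leu-TAG and the genes whose step differs between days. The labels give no batch or date.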

Additional observations from a re-analysis of the deposited data

Results flagged for a closer look

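In 9 genes the step between doses (20000 R over 10000 R) at day 20 differed from the step at day 2 by limma's interaction contrast, adjusted by Benjamini-Hochberg. The difference, day 20 minus day 2 on the log2 scale, was -2.15 for Mst84Da, -1.58 for CG3213, -1.53 for CG14718, -1.5 for FBgn0038762 and -1.6 for CG10252. It was -1.56 for CG12699, -1.49 for Ppi1, -1.35 for S-Lap4 and -1.46 for loopin-1. Adjusted p ran from 0.0269 to 0.0472. After quantile normalization 0 genes differed, so all 9 lost the call, and DESeq2 called 97 with a more negative and 7 with a more positive step. At day 2 these genes had steps between -0.33 and 0.16, and at day 20 between -1.99 and -1.52. All 9 are among the genes that dropped at least 8-fold between day 2 and day 10 at both doses.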

How the results depend on the processing

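No paired analysis was possible because the table's columns carry no replicate numbers, so the fit with the number as a block was not run. In each of the 21 alternative settings, all 97 falls kept a value below 0 and all 7 rises a value above 0. Of 68 genes followed over these settings, 0 reversed, 1156 values stayed on their side of the threshold, 257 lost the call and 15 gained it, mostly when the 6 libraries were fitted alone (58) or a library was left out. At day 20 the genes higher and lower were 2 and 164 with all 53 libraries, 0 and 0 with the 6 alone, and 17 and 267 without the day 10 libraries. They were 20 and 238 without 10000 R day 10 c and 20000 R day 10 a, 18 and 222 with DESeq2 and 53 and 331 with array weights. Fewer rises passed after median ratio scaling (4) and without trend (2). Quantile normalization gave 5 higher and 71 lower, with 39 of the 97 falls kept and 58 lost. Leaving out 1 library gave 2 to 4 higher and 52 to 92 lower. Spermatocyte and spermatid members lower were 0 with the 6 alone, 26 without the day 10 libraries, 24 without the 2 named libraries, 23 with DESeq2 and 29 with array weights, against 14. At day 10, genes higher and lower were 23 and 64 with all 53 libraries, 158 and 167 with DESeq2 and 9 and 60 after quantile normalization, against 5 and 22, so 48.6% of DESeq2 calls were higher, against 18.5% by limma. Without the 2 named libraries 85 were lower at day 10 and 4 higher at day 2. DESeq2 called 5 higher and 3 lower at day 2. The step differed between days 20 and 10 for 3 genes, all lower, with all 53 libraries, and for 1 higher and 18 lower with DESeq2. Between days 20 and 2 it differed for 47 lower genes with all 53 libraries, 38 without the 2 named libraries, 7 higher and 97 lower with DESeq2, and 0 after quantile normalization, against 9. The cause of these differences was not tested. Genes under 20 normalized counts were rarely called, which limits what depth can show for late spermatid genes.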
